A study of Mus musculus with 12 samples.

Results

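The genes described here are 10 components of Nodal and Activin signalling: Nodal, Lefty1, Lefty2, Tdgf1, Acvr1b, Acvr2b, Smad2, Smad3, Smad7 and Furin. They were chosen by symbol, and each matched a single row among the 22462 genes of the count table. All 10 also passed the filter on low counts that left 11750 genes for testing. Nodal is a secreted ligand of the TGF-beta superfamily that, together with the related Activins, keeps the post-implantation epiblast pluripotent and patterns the early embryo. Nodal binds type I and type II activin receptors with the help of a membrane-bound co-receptor, and the receptors phosphorylate SMAD2 and SMAD3, which enter the nucleus with SMAD4 and bind DNA through partners such as FOXH1. The pathway induces its own extracellular inhibitors, the Lefty proteins, so ligand and antagonist are usually expressed side by side.

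Mouse embryonic stem cells (ESCs) were compared with epiblast-like cells (EpiLCs) by ribosome profiling, in which ribosome protected footprints (RPFs) are sequenced alongside total RNA. ESCs were held in serum-containing Knockout DMEM with LIF and with 2i, the MEK inhibitor PD0325901 and the GSK3 inhibitor CHIR99021, and EpiLCs were the same cells about 56 hours after LIF and 2i were taken away. Each of the 4 groups (ESC total RNA, EpiLC total RNA, ESC RPF and EpiLC RPF) had 3 libraries, which the study calls biological replicates. The labels name no cell line and no added Activin or FGF. The study's methods list a V6.5-derived reporter line for the differentiation that these libraries were made from. These are bulk libraries, in which fewer cells of a type and less RNA per cell cannot be told apart.

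Sequencing depth, as the summed count of a library, lay between 11491044 and 13477432 for ESC total RNA and between 6188838 and 14655015 for EpiLC total RNA. It lay between 4777262 and 11359352 for ESC RPF and between 2681439 and 5413144 for EpiLC RPF. The lowest count of any of the 10 genes in any library was 92, for Smad3 in ESC RPF replicate 2. The cell labels were checked with marker genes. Summed over 5 naive markers, total RNA was 1480 to 1675 CPM (the count divided by the library total and scaled to be comparable between libraries) in ESCs and 48.6 to 90.8 CPM in EpiLCs. Summed over 4 epiblast-like markers it was 109 to 200 CPM in ESCs and 1132 to 1212 CPM in EpiLCs. Over 3 genes listed as markers of both states (Pou5f1, Sox2 and Nanog) it was 2199 to 2407 CPM in ESCs and 1091 to 1264 CPM in EpiLCs. Among these 3, Sox2 and Nanog were called lower in EpiLCs in both assays, with total RNA log2 changes of -2.72 and -1.58. Pou5f1 (-0.65) was not called. Markers of other cell types were also summed in total RNA, with 3.83 to 5.48 CPM over 5 primitive endoderm genes in all 6 libraries. Summed over 4 fibroblast genes, total RNA was 1.98 to 2.09 CPM in ESCs and 9.53 to 12.1 CPM in EpiLCs. The other lists gave 9.72 to 11.7 CPM in ESCs and 5.01 to 7.92 CPM in EpiLCs over 4 mesendoderm genes, 1.98 to 3.48 and 7.23 to 9.53 CPM over 4 trophoblast genes, and 83.2 to 96.9 and 61.4 to 72.6 CPM over 3 neural genes. Of these markers Col1a1 and Thy1 (fibroblast), Krt7 (trophoblast) and Pax6 (neural) were called higher in EpiLC total RNA. Their log2 changes were 2.11, 1.81, 2.15 and 4.77, and they were also called higher in RPF. Eomes and Gsc (mesendoderm) were called lower in both assays, with total RNA log2 changes of -1.19 and -2.62. Most of the neural sum came from Tubb3, with mean total RNA of 80.1 CPM in ESCs and 47.1 CPM in EpiLCs. Its log2 change in total RNA was -0.75, which was not called. The trophoblast marker Elf5 had 0 counts in all 12 libraries. The part of other cell types in the changes below was not tested.

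Lefty1 and Lefty2 are near-identical neighbours on the plus strand of chromosome 1, and how well reads can tell them apart bears on every Lefty value. The counted coding sequence of Lefty1 (ENSMUSG00000038793.8) runs from 180935155 to 180937975 in mm10, and that of Lefty2 (ENSMUSG00000066652.5) from 180893229 to 180897813. Over 1059 aligned bases 82 differed, an identity of 92.3%. The 60-base stretch with the most differences, 18 in all, is shown for both genes with the differing bases in capitals. It lies at counted bases 61 to 120, at chr1:180935215-180935274 for Lefty1 and chr1:180893289-180893348 for Lefty2, both in coding exons on the plus strand.
Lefty1: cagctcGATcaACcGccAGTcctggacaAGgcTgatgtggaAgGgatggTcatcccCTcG
Lefty2: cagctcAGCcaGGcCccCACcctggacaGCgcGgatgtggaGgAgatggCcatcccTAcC

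A footprint from this stretch can be placed on 1 gene only. The longest run without a difference was 140 bases. A footprint that lies wholly in such a run maps equally well to both genes and was dropped from the counts.

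Of all 28-base windows along each Lefty coding sequence, 41.3% occurred in the other gene. The remaining windows carry the counts, so the separation of Lefty1 from Lefty2 rests on reads that cover a difference. A change between cell states within an assay uses the same windows in both states. Levels per length of the Lefty genes, in contrast, are understated by the missing windows.

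Lefty1 and Lefty2, the secreted antagonists that bind Nodal and its co-receptor, moved in opposite directions. Lefty1 total RNA was 31.4, 49.6 and 40.6 CPM in ESC replicates 1, 2 and 3, and 269.7, 267 and 307 CPM in EpiLC replicates 1, 2 and 3. Lefty1 RPF was 63.2, 52.1 and 48.6 CPM in the ESC replicates and 492, 568 and 568 CPM in the EpiLC replicates. In both assays all EpiLC libraries lay far above all ESC libraries. In the voom and limma fit across all genes, Lefty1 rose 7.10-fold in total RNA (log2 change 2.83 ± 0.11 SE, limma adjusted p = 1.18e-16) and 9.79-fold in RPF (3.29 ± 0.12, limma adjusted p = 3.12e-17). These changes stood at percentiles 96.7 and 96.9 of all tested genes.

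Lefty2 total RNA was 94.0, 75.9 and 95.5 CPM in the ESC replicates and 27.3, 19.9 and 28.7 CPM in the EpiLC replicates. Lefty2 RPF was 133, 111 and 151 CPM in ESCs and 44.0, 46.6 and 41.0 CPM in EpiLCs. Here the ESC libraries were the higher ones without overlap. Lefty2 fell 3.42-fold in total RNA (log2 change -1.77 ± 0.14 SE, limma adjusted p = 2.63e-11) and 3.14-fold in RPF (-1.65 ± 0.15, limma adjusted p = 6.76e-10).

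**Figure D1:**
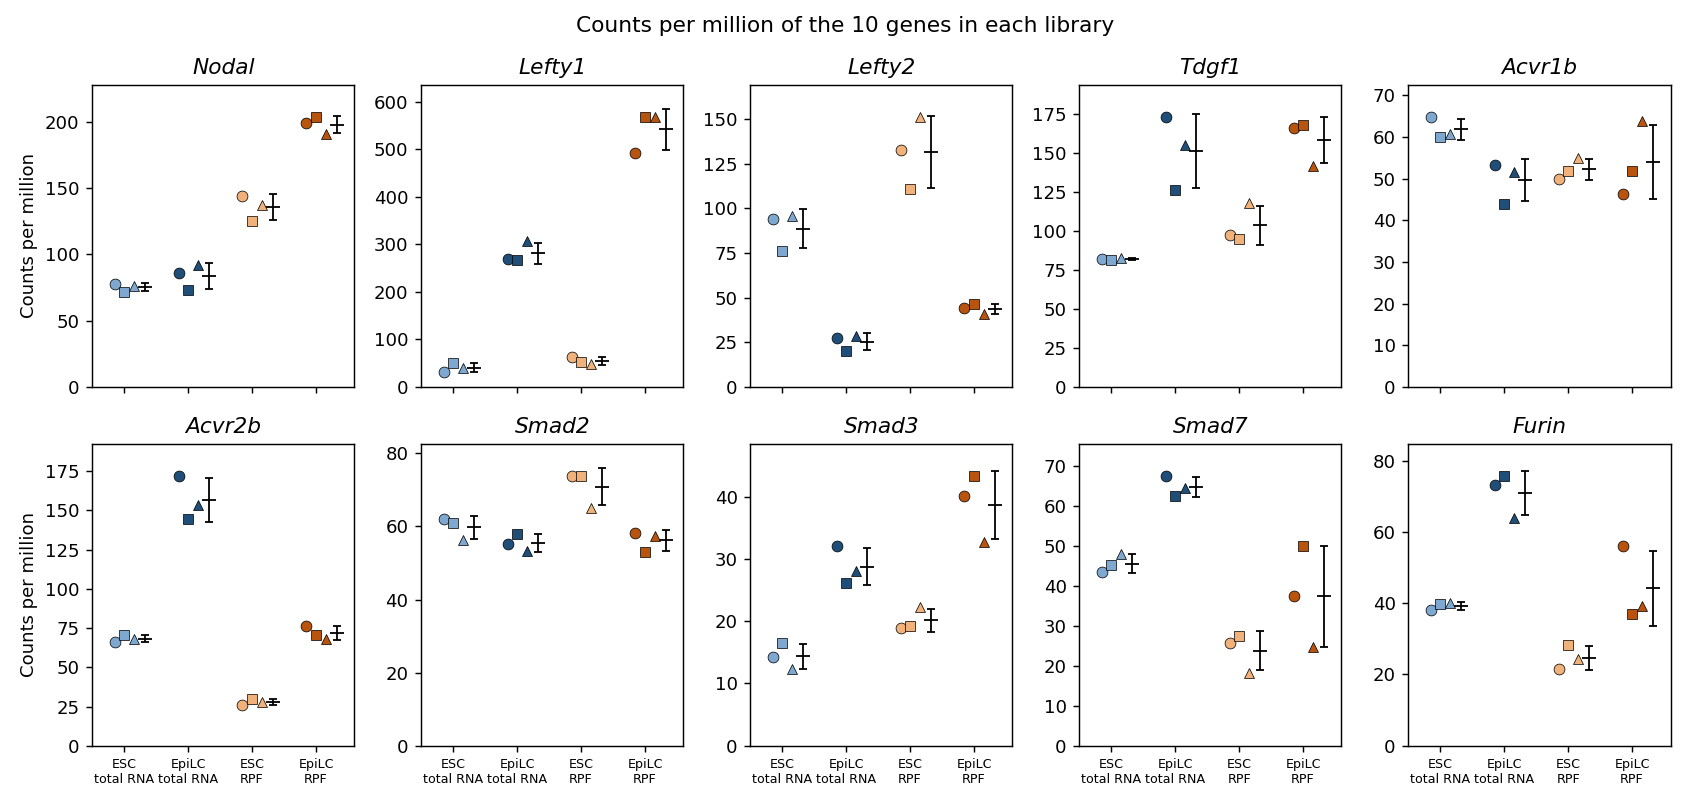
CPM (linear axis from 0) of each of the 10 genes in the 12 libraries, by group, with circles, squares and triangles for replicates 1, 2 and 3 and black bars for the mean ± SD of 3 libraries. Lefty1 and Lefty2 trade places between the states, Acvr2b is higher in EpiLCs in both assays, and Nodal overlaps between states in total RNA but not in RPF.

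With these opposite changes, the Lefty gene that supplied most of the reads was a different one in each state. Lefty1 made up 31.5 ± 7.37% (SD, n = 3) of Lefty1 and Lefty2 counts in ESC total RNA and 91.8 ± 1.17% in EpiLC total RNA. Among RPFs the Lefty1 share was 29.5 ± 4.48% in ESCs and 92.5 ± 0.734% in EpiLCs. The shares of the states did not overlap in either assay, where an exact permutation test of 3 against 3 libraries gave p = 0.1, the smallest it allows. This was 1 of 12 such tests on shares and ratios described here, and its Benjamini-Hochberg adjusted value was 0.109. The sum of both genes was higher in EpiLCs, with 129 ± 6.16 CPM in ESC and 307 ± 25.8 CPM in EpiLC total RNA, and with 186 ± 20.1 and 586 ± 43.4 CPM in RPF.

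The ESC libraries were not alike in this share. It was 25.03% in ESC total RNA replicate 1 (95% exact Clopper-Pearson interval 23.0% to 27.2%), 39.5% in replicate 2 (37.0% to 42.1%) and 29.9% in replicate 3 (27.6% to 32.2%). The intervals, which cover counting error only, did not overlap. Replicate 2 was also the ESC total RNA library with the highest epiblast-like marker sum, 200.2 CPM against 109 and 141 CPM in the others. It also had the lowest naive sum, 1480.4 CPM against 1663 and 1675 CPM. Most of the epiblast-like sum came from Dnmt3b, with a mean of 137 CPM in ESC total RNA. In ESC RPF replicates 1, 2 and 3 the share was 32.26%, 31.96% and 24.35%. Their epiblast-like sums were 130.95, 136.69 and 110.92 CPM, and their naive sums 2485.7, 2509.4 and 2583 CPM. A link between the share and these marker sums was not tested. Without ESC total RNA replicate 2 the Lefty1 change in total RNA was 2.98.

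**Figure D2:**
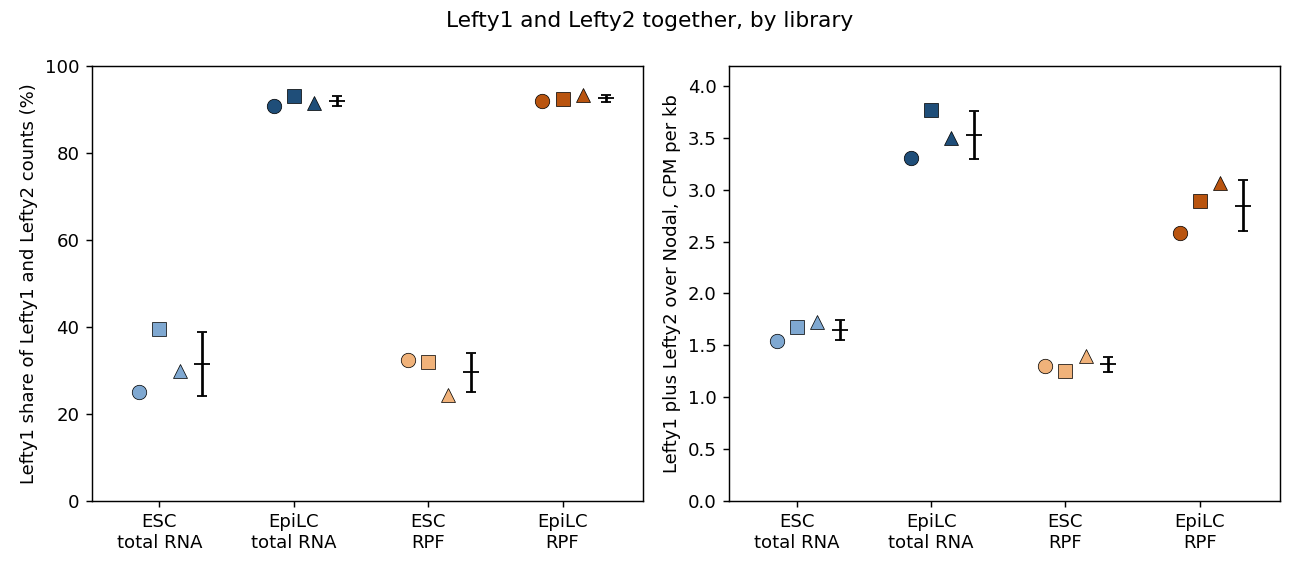
Left, Lefty1 as a percent of Lefty1 and Lefty2 counts. Right, the summed Lefty1 and Lefty2 level over the Nodal level, both in CPM per kb, for each of the 12 libraries (circles, squares and triangles for replicates 1, 2 and 3, black bars for mean ± SD of 3). The share is 24.3% to 39.5% in all 6 ESC libraries and 90.8% to 93.3% in all 6 EpiLC libraries.

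Nodal, the ligand after which the pathway is named, was not called in either assay. Nodal (ENSMUSG00000037171.6, chromosome 10, 61418345 to 61424636, plus strand) had 78.1, 71.9 and 75.9 CPM in the ESC total RNA replicates and 86.3, 73.2 and 92.1 CPM in the EpiLC ones. The groups overlapped, and the log2 change was 0.17 ± 0.08 (SE, limma adjusted p = 0.0799). Without EpiLC total RNA replicate 2 it was 0.24 (limma adjusted p = 0.0127). Nodal RPF was 144, 126 and 137 CPM in ESCs and 199, 204 and 191 CPM in EpiLCs. These groups did not overlap, and the log2 change of 0.50 ± 0.08 (limma adjusted p = 7.87e-06) passed the p threshold but not the fold limit of 1. Per length, the Lefty sum was 1.65 ± 0.0931 times the Nodal level in ESC total RNA and 3.53 ± 0.232 times in EpiLC total RNA. The same ratio was 1.31 ± 0.0747 and 2.85 ± 0.244 among RPFs. The dropped shared windows lower all of these ratios. In both assays every EpiLC library had a higher ratio of antagonist to ligand than every ESC library, with an exact permutation p of 0.1.

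Furin is a proprotein convertase that cleaves the Nodal precursor into mature ligand. Furin (chromosome 7, 80390707 to 80398725, minus strand) had 38.0 to 40.0 CPM in ESC total RNA and 63.9 to 75.6 CPM in EpiLC total RNA. Its log2 change was 0.85 ± 0.10 (limma adjusted p = 5.34e-08) in total RNA and 0.85 ± 0.15 (limma adjusted p = 2.43e-05) in RPF, both under the fold limit. RPF levels of Furin were 21.5, 28.3 and 24.2 CPM in ESCs and 56.2, 36.9 and 39.3 CPM in EpiLCs, again without overlap.

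Tdgf1 encodes Cripto, the GPI-anchored co-receptor that Nodal needs to reach its receptors. Tdgf1 (ENSMUSG00000032494.12, chromosome 9, 110940704 to 110944218, minus strand) had 82.1, 81.3 and 82.6 CPM in the ESC total RNA replicates and 173, 126 and 155 CPM in the EpiLC ones. Tdgf1 RPF was 97.4, 95.03 and 118 CPM in ESCs and 166, 168 and 141 CPM in EpiLCs. The states did not overlap in either assay. The log2 changes of 0.90 ± 0.09 in total RNA (limma adjusted p = 8.08e-09) and 0.55 ± 0.11 in RPF (limma adjusted p = 0.000103) stayed under the fold limit, and the total RNA change was 1.01 without EpiLC total RNA replicate 2. Of the 28-base windows of Tdgf1, 73.2% also occur in transcripts of Tdgf1-ps1, Tdgf1-ps2 or Gm13455, so its counts come from a minor part of the gene and its levels per length are understated.

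The receptors differed from each other. Acvr2b, a type II receptor that binds Nodal and Activin, rose in both assays. Acvr2b (ENSMUSG00000061393.14, chromosome 9, 119402591 to 119433461, plus strand) had 66.3, 70.7 and 68.1 CPM in the ESC total RNA replicates and 172, 144 and 153 CPM in the EpiLC ones. Acvr2b RPF was 25.9, 29.9 and 27.8 CPM in ESCs and 76.6, 70.9 and 68.0 CPM in EpiLCs. Each EpiLC library was above each ESC library of its assay. The log2 changes were 1.21 ± 0.07 in total RNA (limma adjusted p = 2.44e-13) and 1.35 ± 0.12 in RPF (limma adjusted p = 3.55e-10).

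Acvr1b, the type I receptor kinase ALK4 that phosphorylates SMAD2 and SMAD3, showed no such rise. Acvr1b (chromosome 15, 101174190 to 101210862, plus strand) had 60.1 to 64.7 CPM in ESC and 43.8 to 53.2 CPM in EpiLC total RNA, a log2 change of -0.30 ± 0.09 (limma adjusted p = 0.00792) that is within the fold limit. Its RPF levels overlapped, at 49.8 to 54.8 CPM in ESCs and 46.3 to 63.7 CPM in EpiLCs, with a log2 change of 0.02 ± 0.12 and a 95% interval of -0.23 to 0.26. Per length, the ratio of Acvr2b to Acvr1b went from 1.04 ± 0.0721 to 2.98 ± 0.163 in total RNA and from 0.503 ± 0.0345 to 1.28 ± 0.277 in RPF (SD, n = 3), without overlap. An exact permutation test gave p = 0.1 for each, the smallest possible.

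Smad2 and Smad3, the receptor-regulated SMADs of this branch, also differed. Smad3 (chromosome 9, 63650262 to 63757632, minus strand) had 14.2, 16.4 and 12.4 CPM in the ESC total RNA replicates and 32.003, 26.2 and 28.1 CPM in the EpiLC ones. Smad3 RPF was 18.9, 19.3 and 22.3 CPM in ESCs and 40.1, 43.3 and 32.7 CPM in EpiLCs, and neither assay showed overlap. Smad3 rose in total RNA by 1.04 ± 0.13 on the log2 scale (limma adjusted p = 2.06e-07). This call sits at the fold limit and was lost with DESeq2 (0.97), with RLE factors (1.00), when ESC total RNA replicate 3 (0.94) or EpiLC total RNA replicate 1 (0.95) was left out. In RPF the Smad3 change was 0.85 ± 0.15 (limma adjusted p = 2.57e-05), under the limit.

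Smad2, on chromosome 18, had 62.1, 61.0 and 56.2 CPM in the ESC total RNA replicates and 55.2, 58.0 and 53.3 CPM in the EpiLC ones, which overlapped. Its log2 change was -0.11 ± 0.08 (limma adjusted p = 0.232) in total RNA and -0.33 ± 0.10 (limma adjusted p = 0.00594) in RPF. The RPF groups did not overlap, at 65.0 to 73.7 CPM in ESCs and 53.0 to 58.2 CPM in EpiLCs, but the change was within the fold limit. The ratio of Smad2 to Smad3 per length was 3.52 ± 0.367 in ESC and 1.63 ± 0.209 in EpiLC total RNA, and 2.97 ± 0.460 and 1.24 ± 0.221 in RPF. The states did not overlap in these ratios, with an exact permutation p of 0.1 in both assays.

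Smad7, an inhibitory SMAD that blocks the type I receptor and is itself induced by TGF-beta family signals, lies on chromosome 18. Smad7 total RNA was 43.5 to 48.0 CPM in ESCs and 62.4 to 67.4 CPM in EpiLCs, a log2 change of 0.52 ± 0.12 (limma adjusted p = 0.000320). Smad7 RPF was 25.7, 27.4 and 18.3 CPM in ESCs and 37.6, 49.97 and 24.8 CPM in EpiLCs, where replicate 3 was the lowest in each state and the states overlapped. The RPF change was 0.56 ± 0.18 (limma adjusted p = 0.0100), under the fold limit. It no longer passed the p threshold without ESC RPF replicate 3 (0.31, limma adjusted p = 0.173), without EpiLC RPF replicate 1 (0.44, 0.0738) or 2 (0.37, 0.0909), or with the GC trend removed (0.31, 0.103). The ratio of Smad7 to the sum of Smad2 and Smad3 per length was 0.710 ± 0.0845 in ESC and 0.859 ± 0.0261 in EpiLC total RNA, without overlap (exact permutation p = 0.1). In RPF it was 0.298 ± 0.0528 and 0.433 ± 0.132, which overlapped (exact permutation p = 0.3).

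**Figure D3:**
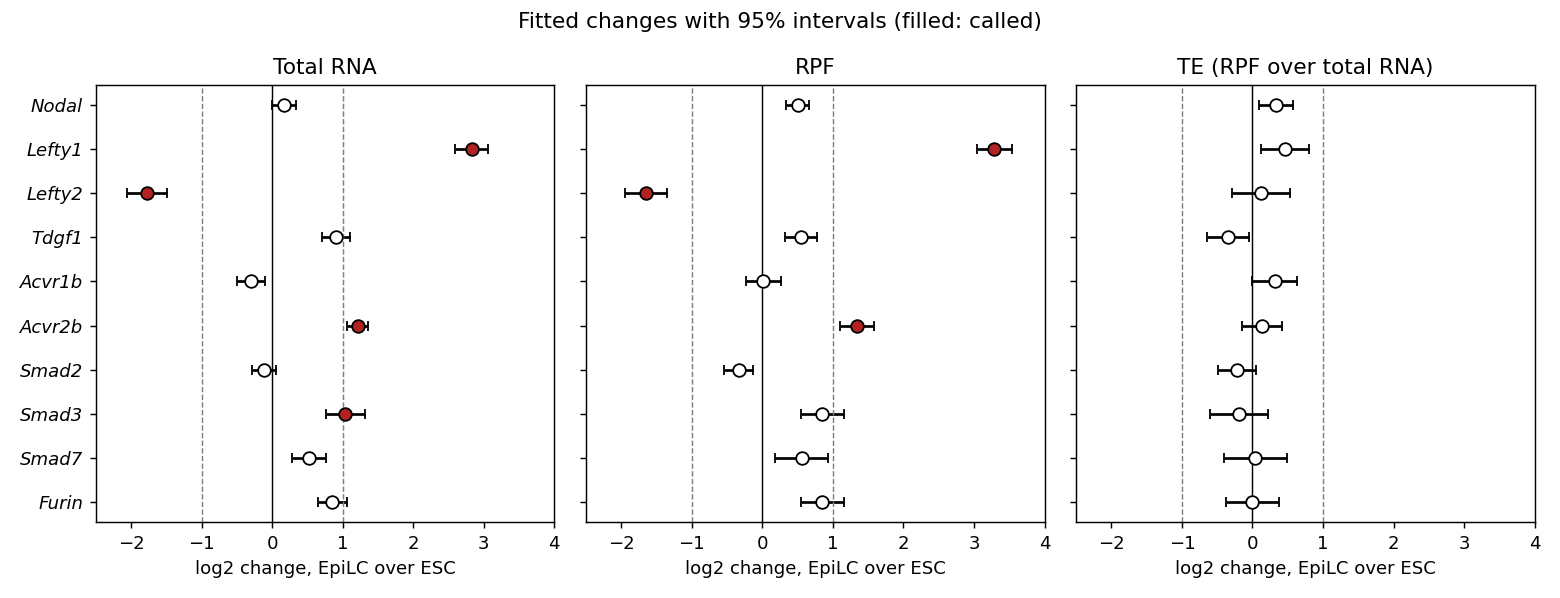
Log2 change of EpiLC over ESC for total RNA, RPF and TE of the 10 genes from the limma fit, with 95% intervals (3 libraries a group). Filled points were called, solid lines mark 0 and dashed lines the fold limit of 1 either way. Lefty1, Lefty2 and Acvr2b are filled in total RNA and RPF, Smad3 in total RNA only, and no point is filled for TE.

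A gene was called at a limma adjusted p below 0.05 with a log2 change beyond 1 in either direction. In total RNA 3 of the 10 genes were called higher (Lefty1, Acvr2b and Smad3) and 1 lower (Lefty2), where 14.6% of all tested genes were called higher and 9.70% lower. In RPF 2 were called higher and 1 lower, against 15.4% and 10.6% of all genes. Without the fold limit, 8 of the 10 passed the adjusted p threshold in total RNA and 9 in RPF, beside 65.4% and 59.8% of all genes. The median change of the 10 genes was 0.69 in total RNA and 0.56 in RPF on the log2 scale, and that of all tested genes was 0.03 and 0.01. With 10 genes these counts are too small to be read apart from the background.

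Translational efficiency (TE), or RPF reads relative to those of total RNA, was examined next. The question was whether ribosome occupancy of these mRNAs changed beyond the mRNA itself. By the interaction of assay and cell state in limma, 0 of the 10 genes were called for a TE change, where 0.136% of all genes were called higher and 0.119% lower. At an unadjusted p below 0.05 there were 3 (Nodal, Lefty1 and Tdgf1), beside 13.9% of all genes, and edgeR and DESeq2 also called 0 of the 10. The change was 0.34 ± 0.12 for Nodal (95% interval 0.10 to 0.57, limma adjusted p = 0.164). It was 0.46 ± 0.16 for Lefty1 (0.13 to 0.80, limma adjusted p = 0.179), and 0.65 with an adjusted p of 0.0362 by limma when ESC total RNA replicate 1 was left out. It was -0.35 ± 0.14 for Tdgf1 (-0.65 to -0.06, limma adjusted p = 0.261). For the other 7 the estimates ran from -0.22 for Smad2 to 0.31 for Acvr1b. No interval among the 10 reached a change of 1 in either direction.

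The 10 genes differed widely in TE within each state. Nodal was at the upper end. Its RPF level was 1.89 ± 0.0705 times its total RNA level in ESCs and 2.46 ± 0.367 times in EpiLCs after TMM scaling (SD over 3 same-numbered library pairs). On the log2 scale the fit gave Nodal a TE of 0.93 ± 0.08 in ESCs (limma adjusted p = 1.55e-10) and 1.27 ± 0.08 in EpiLCs (limma adjusted p = 1.96e-12), percentiles 90.3 and 94.6 of all genes. Nodal passed the fold limit in EpiLCs, and in ESCs only when ESC RPF replicate 2 was left out (1.01).

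Acvr2b was at the lower end. Its RPF level was 0.428 ± 0.0148 times its total RNA level in ESCs and 0.473 ± 0.0267 times in EpiLCs. The log2 TE was -1.23 ± 0.10 (limma adjusted p = 1.15e-10) and -1.09 ± 0.09 (limma adjusted p = 1.17e-10), percentiles 10.1 and 12.7. Smad7 followed with -0.94 ± 0.15 and -0.90 ± 0.16, and Furin with -0.63 ± 0.13 in both states. Acvr1b, the other receptor, had a TE near 0, at -0.17 ± 0.10 in ESCs and 0.15 ± 0.12 in EpiLCs. The Acvr1b value in ESCs passed the p threshold with the GC trend removed (-0.28, limma adjusted p = 0.00991) and with library totals (-0.24, 0.0330). That in EpiLCs passed it without EpiLC RPF replicate 1 (0.31, limma adjusted p = 0.0459). Acvr2b, whose total RNA and RPF both rose, thus had a low TE in both states.

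Both Lefty genes had a higher CPM in RPF than in total RNA. Lefty1 had a log2 TE of 0.52 ± 0.14 in ESCs and 0.99 ± 0.09 in EpiLCs, and Lefty2 of 0.67 ± 0.10 and 0.79 ± 0.17. Smad3 had 0.59 ± 0.15 and 0.40 ± 0.13, Tdgf1 0.42 ± 0.10 and 0.07 ± 0.10, and Smad2 0.30 ± 0.08 and 0.08 ± 0.10. For the Lefty genes and Tdgf1 these values depend on read length. Footprints are shorter than total RNA reads, so more of them fall wholly in shared windows and were dropped. Comparing 28-base windows with 32-base and 50-base windows, this understates log2 TE by 0.080 to 0.30 for Lefty1 and Lefty2 and by 0.15 to 0.71 for Tdgf1. The other 7 genes had 0 shared windows.

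**Figure D4:**
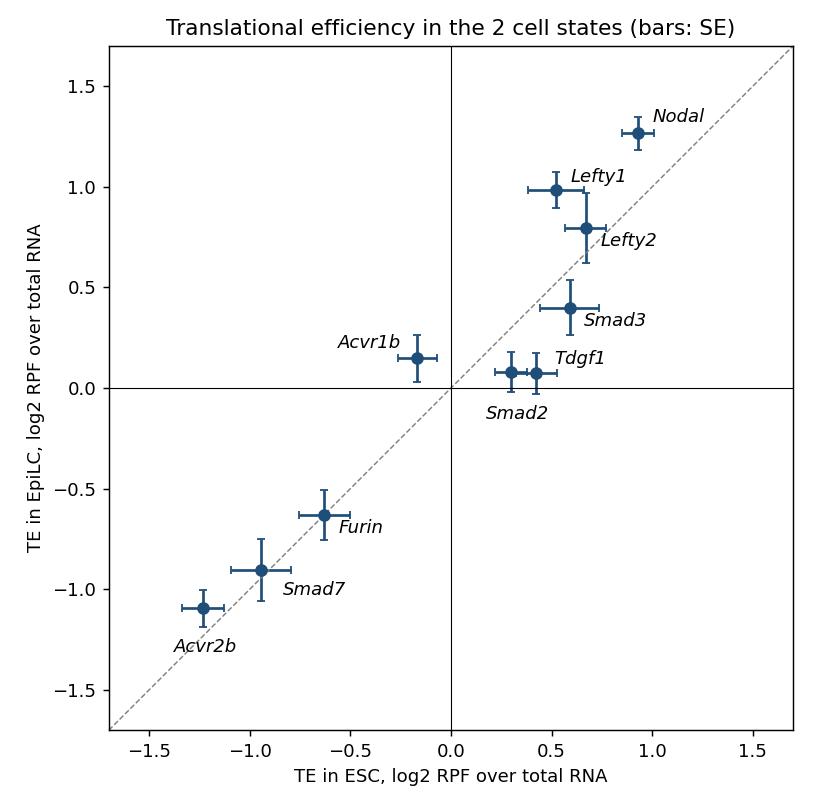
Log2 TE in ESCs (horizontal) against EpiLCs (vertical) for the 10 genes, with SE bars from the limma fit on 3 libraries a group and the line of equal TE dashed. Nodal and the Lefty genes lie at the upper right, Acvr2b, Smad7 and Furin at the lower left near the line.

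Called genes were few here as well. In ESCs 0 of the 10 were called higher and 1 lower (Acvr2b) for TE, where 7.93% of all genes were called higher and 13.5% lower. In EpiLCs 1 was called higher (Nodal) and 1 lower (Acvr2b), against 9.39% and 14.4%. Lefty1 in EpiLCs, just under the fold limit, was past it with DESeq2 (1.04), with RLE factors (1.04) and in 5 of the fits without 1 library (1.01 to 1.09). Other settings placed Lefty1 lower, down to 0.77 over the alternatives on all libraries and 0.94 over the fits without 1 library. The understatement of its TE by shared windows, 0.080 or more, is larger than its distance from the limit. Smad7 passed the limit for low TE once the GC trend was removed, with -1.09 in ESCs and -1.10 in EpiLCs.

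The order of levels per counted length changed with the state. It is given first as counted, without allowing for the shared windows of Tdgf1, Lefty1 and Lefty2. In ESC total RNA Tdgf1 led with 174 CPM per kb, followed by Lefty2 (83.3) and Nodal (73.8), whose ranges overlapped. Acvr2b, Acvr1b, Smad2, Lefty1 and Smad7 then followed between 43.6 and 36.8 CPM per kb, each overlapping with the next, and Furin (16.8) and Smad3 (11.6) came last. In EpiLC total RNA Tdgf1 (321) and Lefty1 (265) led with overlapping ranges, Acvr2b (99.9) and Nodal (82.2) came next without overlap, and Lefty2 (23.8) and Smad3 (23.3) were last and overlapped. Among RPFs Tdgf1 (219.7), Nodal (133) and Lefty2 (124) led in ESCs, the last pair with overlapping ranges. In EpiLC RPF Lefty1 (511), Tdgf1 (336) and Nodal (194) led without overlap, while the 6 neighbouring pairs from Acvr2b down to Furin all overlapped. Per length of unshared 28-base windows, the order at the top of EpiLC RPF turned, with Tdgf1 at 1256 and Lefty1 at 870.1 CPM per mappable kb and no overlap. In ESC RPF Lefty2 (211) was then above Nodal (133) without overlap. In total RNA, where 32-base and 50-base windows bracket the unknown read length, Tdgf1 was then above Lefty1 in EpiLCs and Lefty2 above Nodal in ESCs, both without overlap at either length. Lower ranks of the Lefty genes moved as well. In EpiLC total RNA Lefty2 had 38.4 (32 bases) or 33.0 (50 bases) CPM per mappable kb, beside Furin at 30.4. In ESC total RNA Lefty1 had 61.5 or 52.9, beside Acvr2b at 43.6. In EpiLC RPF Lefty2 had 70.3, beside Acvr2b at 45.9.

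Other genes of the pathway were counted in 6 lists of 51 genes, of which 34 passed the filter on low counts. In total RNA 7 of these were called higher, 5 lower and 22 not, and in RPF 6 higher, 6 lower and 22 not, beside the background shares given above. The called genes Inhbb, Gdf11, Fstl3, Fgf8, Fgf5 and Gsc had means under the filter's 3 CPM in their lower state in both assays. They passed the filter through the state where they are high, which favours a call. These counts, here and by list below, are therefore not a result about the pathway. For TE change 0 of the 34 were called by limma, edgeR or DESeq2, and 8 had an unadjusted limma p below 0.05, a share to be read beside the 13.9% of all genes. Among 10 further ligands 4 were tested. Inhbb, the beta B subunit of Activin B, fell in total RNA by 2.79 ± 0.45 on the log2 scale (limma adjusted p = 6.18e-06), and its RPF, with 1 to 3 counts per EpiLC library, was at least 5.45-fold lower when set against 3 counts in each library. Gdf11, a ligand that also signals through SMAD2 and SMAD3, rose by 1.39 ± 0.30 in total RNA and by 1.27 ± 0.51 in RPF, the latter which was called in 7 of 12 fits made with a library removed.

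Of 6 further receptors 3 were tested. Acvr2a, the other activin type II receptor, rose in total RNA by 1.06 ± 0.13 (limma adjusted p = 1.58e-07), but had 0.94 and no call without ESC total RNA replicate 2. Its RPF change was 0.55 ± 0.20. Of 8 transducers, all tested, only Foxh1, the forkhead partner of SMAD2 and SMAD3, was called. Foxh1 had 32.7 CPM of total RNA in ESCs and 90.6 CPM in EpiLCs (log2 change 1.49 ± 0.09, limma adjusted p = 2.29e-13), and 38.7 and 115 CPM of RPF (1.54 ± 0.10, limma adjusted p = 2.34e-12).

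Of 15 antagonists 13 were tested, with 2 called higher and 1 lower in total RNA and 2 higher and 2 lower in RPF. Skil, which encodes the SMAD co-repressor SnoN, had 87.2 CPM of total RNA in ESCs and 268 CPM in EpiLCs (1.63 ± 0.07), and 59.6 and 161 CPM of RPF (1.42 ± 0.09). Fstl3, a secreted Activin-binding protein, rose by 2.05 ± 0.41 and 3.03 ± 0.49. Follistatin (Fst), a related Activin-binding protein, fell by 1.10 ± 0.24 in total RNA and by 1.30 ± 0.29 in RPF. Its total RNA change was -0.95 without EpiLC total RNA replicate 2. Dact2, which promotes degradation of Nodal receptors, was called lower in RPF (-1.17 ± 0.13) and had -0.88 ± 0.10 in total RNA.

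Of 3 further convertases 2 were tested. Pcsk6, which encodes PACE4 and can also process Nodal, had 152 CPM of total RNA in ESCs and 35.1 CPM in EpiLCs (-2.09 ± 0.11, limma adjusted p = 1.02e-14), and 138 and 34.6 CPM of RPF (-2.03 ± 0.14, limma adjusted p = 7.19e-12). Furin, described above, had 0.85 in each assay.

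Of 9 genes known as pathway targets in the embryo 4 were tested, and all 4 were called, 2 higher and 2 lower in each assay. Of all tested genes 14.6% were called higher and 9.70% lower in total RNA, and 15.4% and 10.6% in RPF. For Fgf8, Fgf5 and Gsc the lower state had mean total RNA of 1.28, 0.829 and 0.741 CPM, under the filter's 3 CPM, and likewise in RPF. They passed the filter through the state where they are high, which favours a call, so the count of 4 is not a result about the targets. Fgf8 and Fgf5, secreted growth factors of the epiblast, rose by 4.46 ± 0.47 and 5.76 ± 0.67 in total RNA. Fgf5 was also used as an epiblast-like marker, and both rest on few ESC reads: leaving out 1 ESC total RNA library moved Fgf8 between 3.45 and 5.09 and Fgf5 between 4.72 and 6.88. Gsc, an organizer homeobox gene, fell by 2.62 ± 0.45 in total RNA and by 2.62 ± 0.42 in RPF. Eomes, a T-box gene of the primitive streak, fell by 1.19 ± 0.29 and 1.03 ± 0.27. The RPF change of Eomes was -0.85 without ESC RPF replicate 1.

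**Figure D5:**
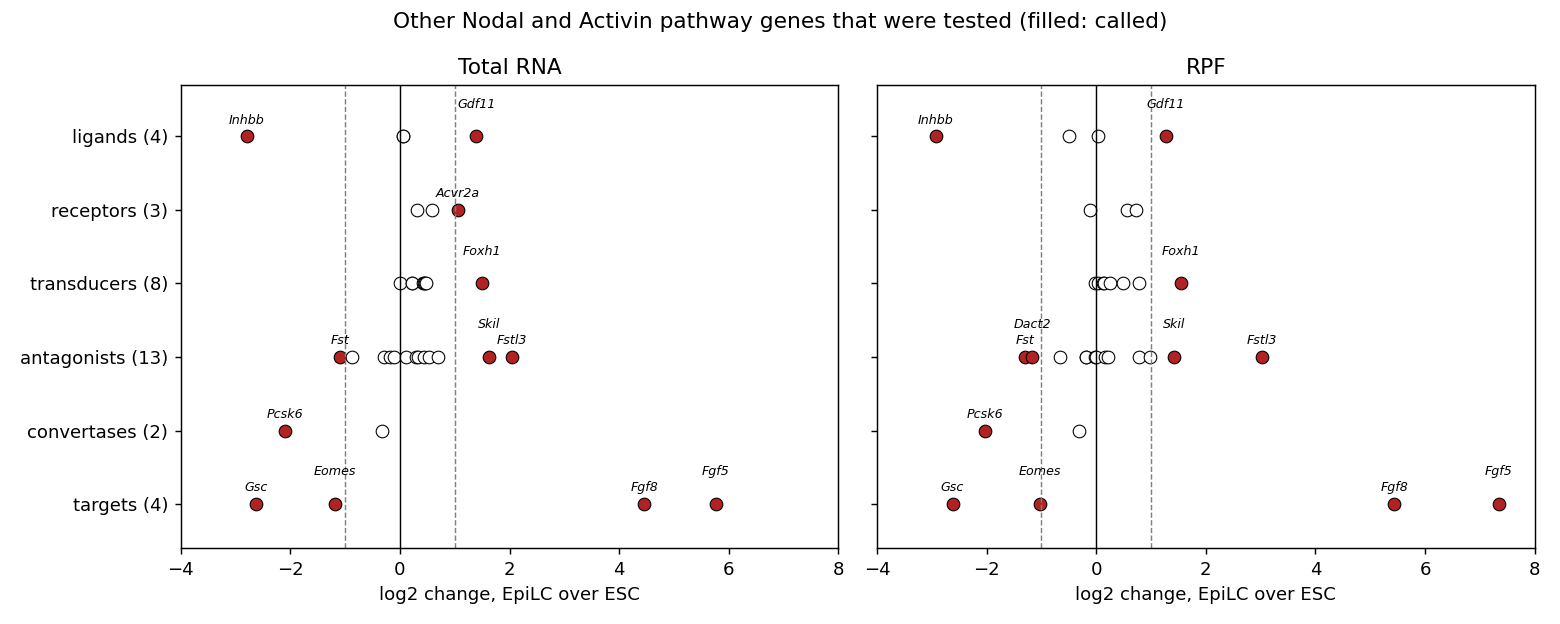
Log2 change of EpiLC over ESC in total RNA (left) and RPF (right) for the 34 tested genes of the 6 pathway lists, 1 point a gene, with the number tested beside each list. Filled points were called and are named, and dashed lines mark the fold limit of 1. Fgf8 and Fgf5 lie furthest right and Inhbb, Gsc and Pcsk6 furthest left.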

How the data were processed

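The authors deposited raw read counts per gene (unit: counts). Per the submitters' processing notes and the methods, adapters were trimmed with cutadapt 1.14, RPF reads of 26 to 32 nt and total RNA reads of at least 32 nt were kept, uniquely mapped with STAR 2.5.3a to mm10 and counted on the sense strand with featureCounts 1.5.3 over coding sequence without its first 45 nt. Treatment of PCR duplicates is not given in the sources used here. Libraries were grouped by title.

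From the deposited counts, genes with at least 3 CPM in at least 3 libraries (11750) were scaled by TMM in edgeR 4.0.16 and fitted with voom and limma 3.58.1 in R 4.3.3, as a model of 4 groups over 12 libraries. Contrasts gave changes of total RNA, RPF and TE, and TE within each state, with Benjamini-Hochberg adjustment over all genes. CPM values in the text are counts over the library total. Fits were tested on simulated data. Chi-square statistics per degree of freedom of same-group library pairs were 2.48 to 7.62, so none were alike within sampling noise.

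Shared windows, coordinates and Lefty sequences came from the deposited table and Gencode M21 transcripts on the same assembly (GRCm38). The 10 genes and the pathway and marker lists were chosen with earlier results of these data known. Up to 4 called genes with the largest changes were named per list. A listed gene and a sequence are not reported here. Depth limits precision most in EpiLC RPF, where 3 counts equal 0.554 to 1.12 CPM. Alternatives were edgeR quasi-likelihood, DESeq2 1.42.0, library totals, RLE, 2 other filters, no fold limit, GC trend removal, replicate blocks and leaving out each library.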

Additional observations from a re-analysis of the deposited data

How the results depend on the processing

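Most values kept their direction and side of the threshold. Over 50 gene-wise results, 986 alternative values did so, 14 gained a call, 4 lost one and 26 changed sign, all of the last in uncalled values near 0. Without the fold limit, the genes passing were 6 higher and 2 lower in total RNA, 7 and 2 in RPF, 6 and 3 for TE in ESCs and 4 and 3 for TE in EpiLCs. Genes called low for TE in ESCs numbered 2 with library totals and 2 with the GC trend removed. In EpiLCs 2 were called high for TE with DESeq2 and 2 with RLE factors, and 2 were called low with the GC trend removed. Over the fits leaving out 1 library, calls were 2 to 4 higher in total RNA, 0 to 1 higher and 1 to 2 lower for TE in ESCs, and 1 to 2 higher and 1 to 2 lower for TE in EpiLCs. The RPF change of Acvr1b was -0.000818 with DESeq2, -0.011 with RLE factors, -0.00960 with every counted gene kept, and -0.176 to 0.117 over the fits leaving out 1 library, with its sign changed in 3. The TE change of Smad7 was -0.015 with the GC trend removed and -0.177 to 0.345 over the fits leaving out 1 library, with its sign changed in 4. That of Furin was 0.000652 with DESeq2, 0.029 with library totals, 0.011 with RLE factors, 0.00525 with every counted gene, 0.019 with at least 10 counts in every library, and -0.203 to 0.111 over the fits leaving out 1 library, with its sign changed in 7. TE of Tdgf1 in EpiLCs was -0.031 with the GC trend removed and -0.0336 to 0.191 over the fits leaving out 1 library, negative without EpiLC total RNA replicate 2. For all of these the cause was not tested.

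With a replicate block by number, 3 of the 10 genes were called higher and 1 lower in total RNA, as without it. Same-numbered ESC and EpiLC libraries did not deviate together, with correlations of -0.013 to 0.033 in total RNA and 0.019 to 0.040 in RPF. Whether same-numbered cultures were handled together is not stated by the labels. Within a state, RPF and total RNA of 1 number had correlations of -0.182 to 0.080 in ESCs and 0.015 to 0.163 in EpiLCs. The SDs of RPF over total RNA given above rest on this matching by number. A replicate block joining RPF and total RNA of 1 number called 0 of the 10 genes for TE change, with Furin at 0.030. Of all 11750 tested genes it called 33 higher and 26 lower, beside 16 and 14 without a block.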

Other observations

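The BMP branch, which signals through SMAD1 and SMAD5 and shares SMAD4 with the Nodal branch, was described for comparison with a list of 16 genes, 13 of them tested. In total RNA 2 were called higher and 1 lower, and in RPF 3 were called higher, beside 14.6% higher and 9.70% lower of all genes in total RNA and 15.4% higher in RPF. Id1, an inhibitor of bHLH factors and a direct BMP target, rose from 3.44 to 20.2 CPM in total RNA (log2 change 2.63 ± 0.23 SE, limma adjusted p = 2.24e-10) and from 7.79 to 55.6 CPM in RPF (2.81 ± 0.19). Id3 rose by 1.46 ± 0.31 and 1.39 ± 0.23. Id2 was called in RPF only (1.27 ± 0.33), with 0.17 ± 0.27 in total RNA and a TE change of 1.11 ± 0.42 that limma did not call (adjusted p = 0.223). Chrd, a BMP antagonist, was called lower in total RNA (5.88 CPM in ESCs and 2.67 CPM in EpiLCs). Its EpiLC mean lies under the filter's 3 CPM, which favours a call. The log2 change of Chrd was -0.997, without a call, when EpiLC total RNA replicate 1 was left out.

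Promoter windows of RefSeq genes on GRCm38.p6 (300 bases around the start) were searched on both strands for CAGAC, a SMAD-binding motif. It occurred in 49.6% of 32851 windows. Of the 10 genes 6 matched an entry, and Lefty1, Lefty2, Smad2 and Smad7 were not searched. It was found for Tdgf1, Acvr2b and Furin (2 of 2 windows) and not for Nodal, Acvr1b and Smad3. TGTNNATT, a FOXH1 motif, occurred in 12.2% of windows and, of these 6 genes, for Tdgf1 only. A match in such a window is a description of its letters.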
